A study of Mus musculus with 4 samples.

Results

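The genes described here drive and mark cell division. With earlier results of these data known, 40 were chosen by name, 17 genes of DNA replication and 23 genes of mitosis. Of these, 39 had a probe set with a single gene symbol in the platform annotation and were measured, all 17 replication genes and 22 of the 23 mitosis genes, among 22180 genes in all. Ccnb1, the gene of cyclin B1, had no such probe set in the annotation used here and was not analysed here. Rrm2 had 2 such probe sets, and the one with the higher mean over the 4 arrays stood for it; each of the other members had 1. Whole stomach tissue was taken from FVB mice aged 1 year, and 2 arrays were labelled Hdc+/+ and 2 Hdc-/-. Histidine decarboxylase, the product of Hdc, makes histamine. The labels give no treatment and no other allele; how the Hdc allele was made, the sex of the mice and the number of mice behind each array are not stated in the labels. Arrays of a genotype are titled as biological replicates, and with nothing more said of separate animals the p-values measure only the spread between these arrays.

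Before a cell divides, origins of replication are licensed by loading the MCM helicase, the helicase is fired and polymerases copy the DNA with newly made deoxynucleotides, and the copies are then parted on a spindle under the control of cyclin-dependent, Aurora and Polo-like kinases. Transcripts of the replication machinery rise ahead of S phase through E2F factors, and those of the mitotic machinery rise later, through promoter elements named CHR and CCAAT. In the stomach, dividing cells are known mainly from the isthmus of the gastric glands, the basal layer of the squamous forestomach and lymphoid cells, so whole tissue gives the sum of a few dividing cells among many that do not divide. In such bulk samples, fewer dividing cells and less RNA per cell cannot be told apart.

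None of the 39 replication and mitosis genes passed the test across all genes for a difference between the genotypes. By limma, 0 passed at an adjusted p under 0.05 in either direction, against 0.00451% of all genes called higher and 0% called lower, and 0 had an unadjusted p under 0.05, against 3.68% of all genes higher and 4.87% lower. The log2 differences, Hdc-/- minus Hdc+/+, ran from -0.18 for Ttk to 0.43 for Cenpe, with standard errors from 0.16 to 0.34 (n = 2 per genotype). The lowest adjusted p was 0.612, for Aurka. The highest values lay mostly on a single array: Hdc-/- array 1 gave the highest of the 4 values for 27 of 39 members (69.2%), whereas it was the highest for 27.2% of all genes. The highest value was on Hdc-/- array 2 for 4 members (10.3%, against 29.6% of all genes), on Hdc+/+ array 1 for 5 (12.8%, against 23.5%) and on Hdc+/+ array 2 for 3 (7.69%, against 19.8%). Without that array the median difference over the members was -0.0011, against 0.19 with all 4.

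The values are log2 probe set values normalized across arrays by RMA, so a difference of 1 is a doubling. The array medians over genes ran from 4.56 to 4.60, and 25 of the 39 members had a mean above the median gene (64.1%, against 50% of all genes). In percentiles of gene means, the members lay between 22.3 (Bub1) and 90.9 (Pcna), and since no background values were used here, it is not known how far above background each of them read. The number of arrays limits the precision: the 95% interval of the difference reached 1.26 for Kif11 at the top and -0.70 for Ccna2 at the bottom. The interval of every member spanned 0, so none of their differences could be told from 0 at this number of arrays. Stomach markers read high on all arrays, with the proton pump gene Atp4a between 10.42 and 11.08 and the pit cell mucin gene Muc5ac between 11.76 and 12.55. Hdc itself read between 3.77 and 4.06 on all 4 arrays, below every array's gene median, and did not differ by genotype label (log2 difference 0.0072, SE 0.19, limma adjusted p = 0.997); whether its probes lie in the deleted part is not known here, so the directions below rest on the labels.

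The replication and mitosis genes differed in the letters of their promoters. RefSeq windows of GRCm38.p6, from 250 bases before to 50 bases after a gene's start, were found for 33 of the 39 members, and not for Aurkb, Ccna2, Gins2, Kif20a, Mcm4 and Tpx2. Each window was searched on both strands for the CHR letters TTTGAA, for 4 forms of an E2F site (TTTCCCGC, TTTGGCGC, TTTGCCGC and TTTCGCGC) and for CCAAT. The CHR letters stood in the windows of 14 of 18 mitosis genes (77.8%) and 2 of 15 replication genes (13.3%), Mcm2 and Cdc45, against 20.2% of all 27025 genes in the table and 18.5% of its protein-coding genes. An E2F form stood in 7 of 15 replication genes (46.7%) and 1 of 18 mitosis genes (5.56%), Cdk1, against 2.60% of all genes and 3.29% of protein-coding genes. CCAAT stood in 16 of 18 mitosis genes (88.9%) and 10 of 15 replication genes (66.7%), against 41.1% of all genes. These are matches of letters and show neither a bound site nor a cause. The CHR variants TTTAAA and TTCGAA, also searched, did not part the arms in this way, with 8 of 18 mitosis genes (44.4%) and 5 of 15 replication genes (33.3%), both above the 16.4% of all genes and 15.6% of protein-coding genes.

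**Figure D1:**
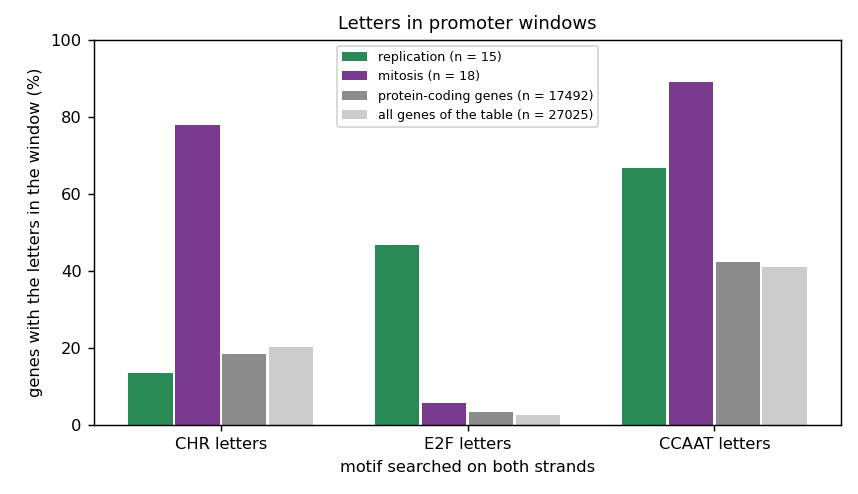
Share of genes, in percent, whose promoter window holds the CHR, E2F or CCAAT letters on either strand, for the 15 replication genes and 18 mitosis genes with a window, for protein-coding genes and for all genes of the RefSeq table. The CHR bar is tallest for mitosis genes (77.8%) and the E2F bar for replication genes (46.7%).

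The 160 bases before the start are shown for 3 replication genes with E2F letters there and for 4 mitosis genes with CHR letters there. They were picked to illustrate the contrast between the arms, except Cdk1, the 1 mitosis gene that also has an E2F form. Capitals mark E2F, CHR and CCAAT letters on either strand, and all stretches run 5′ to 3′ on the strand of the gene. Mcm5 lies at chr8:75109349-75109508 (plus strand), Mcm6 at chr1:128359706-128359865 (minus strand) and Cdc6 at chr11:98907991-98908150 (plus strand). Cdk1, which has letters of all 3 kinds, lies at chr10:69352913-69353072 (minus strand), Top2a at chr11:99024190-99024349 (minus strand), Cdc20 at chr4:118437344-118437503 (minus strand) and Kif11 at chr19:37376222-37376381 (plus strand).
Mcm5: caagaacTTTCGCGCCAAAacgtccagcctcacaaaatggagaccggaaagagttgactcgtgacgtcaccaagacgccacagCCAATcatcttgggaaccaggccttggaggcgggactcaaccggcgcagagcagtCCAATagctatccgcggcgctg
Mcm6: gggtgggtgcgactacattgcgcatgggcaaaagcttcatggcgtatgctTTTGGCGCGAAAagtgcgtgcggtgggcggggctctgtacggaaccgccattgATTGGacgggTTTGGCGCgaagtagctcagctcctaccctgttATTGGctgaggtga
Cdc6: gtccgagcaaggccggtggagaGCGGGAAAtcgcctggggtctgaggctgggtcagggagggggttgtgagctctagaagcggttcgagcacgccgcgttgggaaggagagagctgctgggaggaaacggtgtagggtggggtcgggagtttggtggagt
Cdk1: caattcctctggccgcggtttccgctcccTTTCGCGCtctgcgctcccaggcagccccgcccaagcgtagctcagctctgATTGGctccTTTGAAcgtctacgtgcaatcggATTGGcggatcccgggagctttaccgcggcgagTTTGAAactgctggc
Top2a: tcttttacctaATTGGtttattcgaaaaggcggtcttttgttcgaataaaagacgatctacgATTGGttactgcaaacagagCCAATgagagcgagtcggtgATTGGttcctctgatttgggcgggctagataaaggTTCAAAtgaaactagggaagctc
Cdc20: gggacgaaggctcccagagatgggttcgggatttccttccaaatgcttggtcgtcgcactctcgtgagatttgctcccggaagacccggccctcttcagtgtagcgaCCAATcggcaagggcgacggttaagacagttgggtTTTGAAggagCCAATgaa
Kif11: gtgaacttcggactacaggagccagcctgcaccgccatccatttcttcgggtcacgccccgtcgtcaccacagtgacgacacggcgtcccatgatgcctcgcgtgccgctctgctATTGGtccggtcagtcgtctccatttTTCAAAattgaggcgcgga

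The E2F letters of Mcm5, Mcm6 and Cdc6 lay at different distances, the first base of the nearest form being 149, 47 and 138 bases before the start. Of the CHR letters, the nearest before the start lay 23, 18 and 19 bases before it in Top2a, Cdc20 and Kif11, and 15 in Cdk1. The genes shown were picked for letters before the start, so these distances do not stand for the list. Cdk1 also held CHR letters 71 bases before the start, and Top2a 179. Mki67 held them 98 and 116 bases before it, and Aurka, Bub1b, Cenpf, Kif23, Plk1 and Ttk only after it. The genes with and without these letters gave overlapping ranges of difference between the genotypes. The 16 members with CHR letters had a median log2 difference of 0.25 (from -0.18 to 0.42) and the 17 without 0.078 (from -0.13 to 0.43), while the 8 with E2F letters had a median of 0.17 and the 25 without 0.19. The 7 members without CCAAT had a median of -0.047 and the 26 with it 0.23.

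Among the licensing and helicase genes, all 6 subunits of the MCM helicase had a higher mean on the Hdc-/- arrays, by 0.13 to 0.36 on the log2 scale, and none passed the test. Of all genes, 54.1% had a higher mean on those arrays. Mcm2 read 5.12 and 4.88 on the Hdc+/+ arrays and 5.46 and 5.26 on the Hdc-/- arrays. Both Hdc-/- values lay above both Hdc+/+ values, and the difference was 0.36 (SE 0.18, 95% interval -0.085 to 0.81, limma adjusted p = 0.639). Mcm4 read 5.18 and 5.44 against 5.82 and 5.50, Mcm6 5.20 and 5.11 against 5.38 and 5.36, and Mcm7 5.17 and 5.01 against 5.46 and 5.22. The genotypes did not overlap for these 3 either, although Mcm4 on Hdc-/- array 2 lay only 0.065 above the higher Hdc+/+ value. Of all genes, 21.5% were higher on the Hdc-/- arrays without overlap. Mcm3 read 4.35 and 4.39 against 4.91 and 4.37, so only Hdc-/- array 1 stood above the rest. Mcm5 read 5.10 and 4.997 against 5.29 and 5.07, with Hdc-/- array 2 between the Hdc+/+ arrays. For every MCM gene, Hdc-/- array 1 was the highest of the 4 arrays, against 27.2% of all genes. The 2 loaders of the helicase did not share this order. Cdc6, the ATPase that brings MCM to the origin, read 4.78 and 4.69 against 4.61 and 4.68, with both Hdc-/- values lower (difference -0.089, SE 0.16, limma adjusted p = 0.923). Cdt1, its partner in loading, read 5.07 and 5.28 against 5.27 and 4.99, and the genotypes overlapped.

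The genes of origin firing and synthesis had a median difference of 0.077 over 5 genes. Cdc45, part of the active helicase, read 3.61 and 3.64 on the Hdc+/+ arrays and 3.76 and 4.16 on the Hdc-/- arrays, a difference of 0.33 (SE 0.20, limma adjusted p = 0.696). Its genotypes did not overlap, and here Hdc-/- array 2 was the high one. Gins2, of the GINS complex that joins Cdc45, read 4.45 and 4.51 against 4.45 and 4.67 and also had its highest value on Hdc-/- array 2. Pcna, the sliding clamp of the replication polymerases and a common marker of dividing tissue, read 7.45 and 7.47 against 7.54 and 7.27. The Pcna values of the genotypes overlapped, with the highest and the lowest of the 4 both on Hdc-/- arrays (difference -0.055, 95% interval -0.49 to 0.38, limma adjusted p = 0.969). Pola1, the catalytic subunit of polymerase alpha, read 4.34 and 4.41 against 4.56 and 4.12, and Ccne1, the cyclin E1 that starts S phase with Cdk2, read 4.14 and 4.48 against 4.63 and 4.20. Both had Hdc-/- array 1 on top and overlapping genotypes.

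Enzymes of nucleotide supply went different ways between arrays. Rrm1 and Rrm2 encode the large and small subunits of ribonucleotide reductase, which makes deoxynucleotides. Rrm1 read 5.29 and 5.80 against 5.99 and 5.60 and Rrm2 4.23 and 3.90 against 4.42 and 4.09. Each was highest on Hdc-/- array 1, but the lowest array was Hdc+/+ array 1 for Rrm1 and Hdc+/+ array 2 for Rrm2, and the Rrm1 values of the Hdc+/+ arrays differed by 0.51. The second Rrm2 probe set, which was dimmer, differed by -0.073, against 0.19 for the one used. Tyms, thymidylate synthase, read 5.52 and 5.35 against 5.19 and 5.56, with the Hdc+/+ arrays lying between the Hdc-/- arrays. Tk1, the thymidine kinase of dividing cells, read 5.52 and 5.51 against 5.37 and 5.39. Both Hdc-/- values were the lower ones, by -0.13 on average (SE 0.16, limma adjusted p = 0.867).

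**Figure D2:**
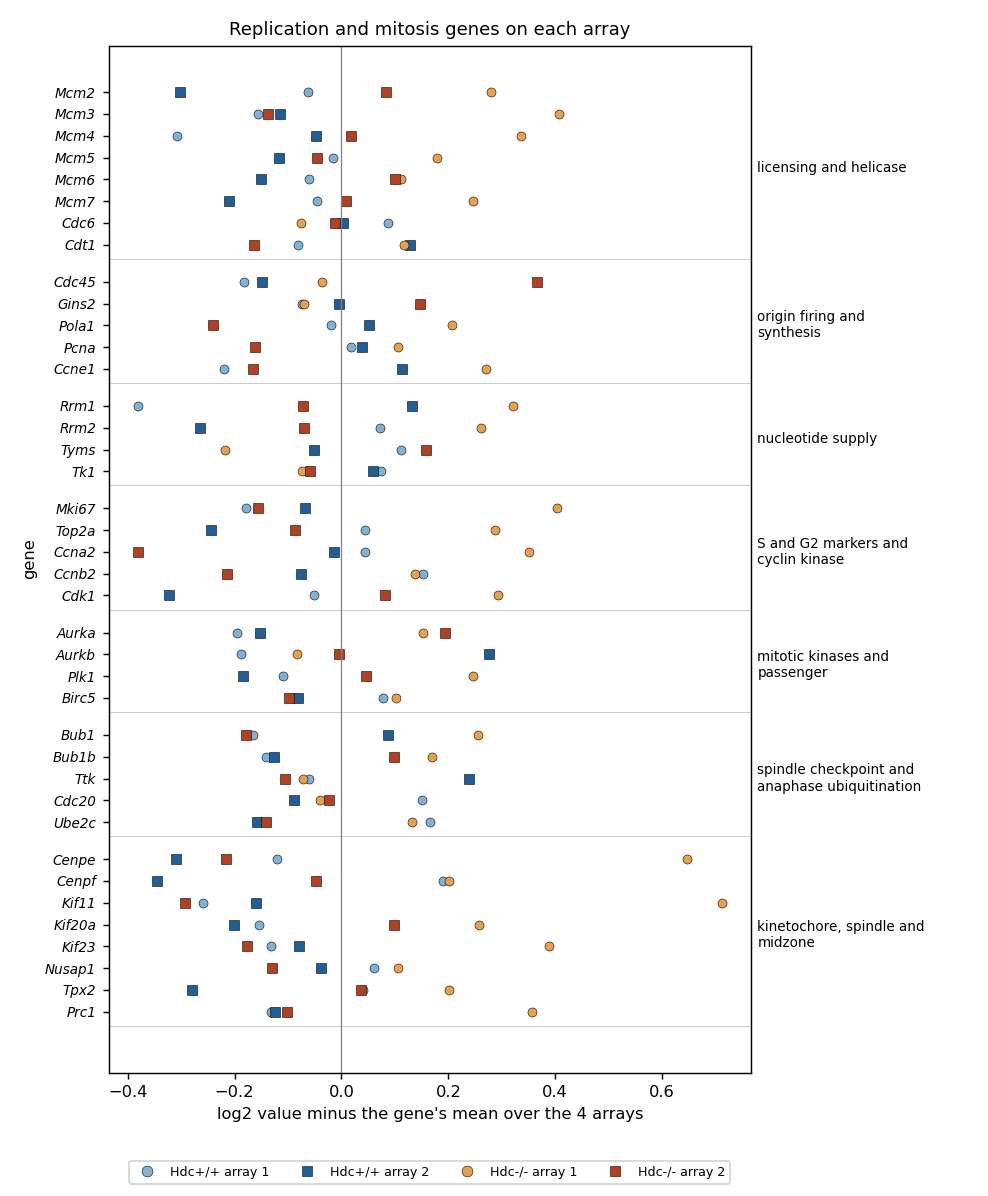
Each row is 1 of the 39 measured genes, grouped by role, and each point is the log2 value on 1 array minus the gene's mean over the 4 arrays. The Hdc-/- array 1 points lie furthest to the right for 27 genes, with Kif11 and Cenpe the most distant.

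The markers of S phase and G2, cyclins A2 and B2 and the kinase Cdk1 were highest on Hdc-/- array 1 in 4 of 5 genes, against 27.2% of all genes. The exception was Ccnb2, highest on Hdc+/+ array 1, and cyclin B1 was not measured. Mki67, the Ki-67 protein that coats mitotic chromosomes and is the usual marker of cycling cells, read 5.94 and 6.05 on the Hdc+/+ arrays and 6.53 and 5.97 on the Hdc-/- arrays. One Hdc-/- array therefore stood above the other 3, and the second lay between the Hdc+/+ values (difference 0.25, SE 0.23, 95% interval -0.32 to 0.82, limma adjusted p = 0.822). Top2a, the topoisomerase that untangles replicated chromosomes, read 4.62 and 4.33 against 4.86 and 4.49, again with overlap. Ccna2, cyclin A2, read 5.73 and 5.68 against 6.04 and 5.31, so that the Hdc-/- arrays held both its highest and its lowest value and differed from each other by 0.73. Ccnb2, cyclin B2, read 5.67 and 5.44 against 5.65 and 5.30, with array 1 above array 2 in each genotype. Cdk1, the kinase that these cyclins activate, read 4.85 and 4.58 against 5.20 and 4.99. It was the 1 gene of this role without overlap, at a difference of 0.37 (SE 0.19, limma adjusted p = 0.641).

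Of the mitotic kinases, Aurka and Plk1 did not overlap between the genotypes, whereas Aurkb and its partner Birc5 did. Both Aurka and Plk1 were higher on the Hdc-/- arrays, as were 21.5% of all genes without overlap. Aurka, the Aurora kinase of the spindle poles, read 4.35 and 4.39 on the Hdc+/+ arrays and 4.69 and 4.74 on the Hdc-/- arrays. The arrays of each genotype lay 0.042 apart, and the difference between genotypes was 0.35 (SE 0.16, 95% interval -0.042 to 0.74), with the lowest unadjusted p of the members (0.0713). Plk1, the Polo-like kinase of mitotic entry and exit, read 5.72 and 5.64 against 6.07 and 5.87 (difference 0.29, SE 0.17). Aurkb, the kinase of the chromosomal passenger complex, read 4.29 and 4.75 against 4.39 and 4.47, and Birc5, or survivin, which holds that complex at centromeres, read 4.07 and 3.91 against 4.10 and 3.90. For Birc5 the 2 genotypes had almost the same mean, array 1 being the higher one in each.

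The spindle checkpoint and anaphase genes had a median difference of -0.0087 over 5 genes. Bub1b, the checkpoint protein BubR1, read 4.23 and 4.24 against 4.54 and 4.47, with both Hdc-/- values above both Hdc+/+ values (difference 0.27, SE 0.16, limma adjusted p = 0.692). Its relative Bub1, the dimmest member, read 3.19 and 3.45 against 3.61 and 3.18. Ttk, the checkpoint kinase Mps1, went the other way at 4.20 and 4.49 against 4.19 and 4.15. Both Hdc-/- values of Ttk lay below the Hdc+/+ values, the lower of which was only 0.010 above them. Cdc20 and Ube2c act together in the anaphase-promoting complex, as its activator and as its ubiquitin-conjugating enzyme. Cdc20 read 5.38 and 5.14 against 5.19 and 5.21 and Ube2c 4.97 and 4.65 against 4.94 and 4.67, with the highest value of both on Hdc+/+ array 1 and a difference of -0.0087 for Ube2c, whose sign turned when arrays were centred on their gene medians.

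All 8 genes of the kinetochore, the spindle and its midzone were highest on Hdc-/- array 1, against 27.2% of all genes. Kif11, the motor Eg5 that pushes spindle poles apart, read 5.11 and 5.21 on the Hdc+/+ arrays and 6.08 and 5.08 on the Hdc-/- arrays. The Hdc-/- arrays differed by 1.00 for Kif11, the largest such gap among the members, while Hdc-/- array 2 was the lowest of all 4 (difference by genotype 0.42, SE 0.34, limma adjusted p = 0.784). Cenpe, the kinetochore motor CENP-E, read 4.61 and 4.42 against 5.37 and 4.51, a gap of 0.86 between the Hdc-/- arrays. Without Hdc-/- array 1 the differences were -0.083 for Kif11 and -0.0011 for Cenpe. Kif23, a motor of the central spindle, read 4.50 and 4.56 against 5.02 and 4.46, and Prc1, which bundles midzone microtubules, read 4.86 and 4.86 against 5.34 and 4.89. For both genes only Hdc-/- array 1 was clearly apart, although Prc1 did not overlap because its Hdc-/- array 2 value was 0.022 above the higher Hdc+/+ value. Kif20a, the midzone motor MKLP2, read 4.58 and 4.53 against 4.99 and 4.83, with both Hdc-/- arrays above (difference 0.35, SE 0.16, limma adjusted p = 0.619). Tpx2, the activator of Aurora A on spindles, read 5.25 and 4.93 against 5.41 and 5.25, and Cenpf, a kinetochore protein, 4.82 and 4.29 against 4.83 and 4.58. Both were lowest on Hdc+/+ array 2. Nusap1, a microtubule-binding protein of the spindle, read 4.27 and 4.17 against 4.31 and 4.08, with array 1 above array 2 in each genotype.

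**Figure D3:**
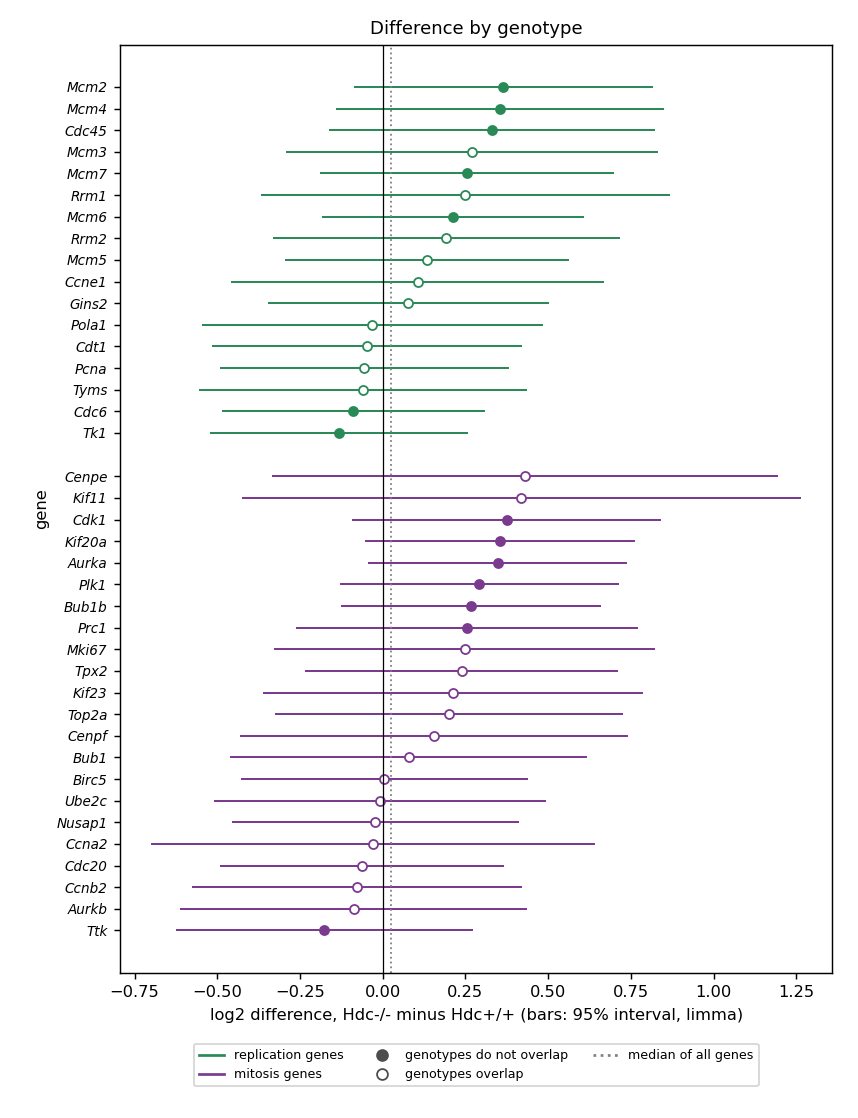
Log2 difference, Hdc-/- minus Hdc+/+, for each of the 39 genes with its 95% interval from limma; filled points are genes whose genotypes do not overlap, and the dotted line is the median of all genes (0.024). Every interval spans 0, and the points run from -0.18 (Ttk) to 0.43 (Cenpe).

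Counted over the list, the mean was higher on the Hdc-/- arrays for 26 of 39 members (66.7%), against 54.1% of all genes. Both Hdc-/- values lay above both Hdc+/+ values for 11 members (28.2%), against 21.5% of all genes, and below them for 3, Cdc6, Tk1 and Ttk (7.69%), against 17.6%. The median difference of the members was 0.19 on the log2 scale, a ratio of 1.14, beside 0.024 for all genes. The shares of 66.7% and 28.2% lie above those of all genes, and the share of 7.69%, which rests on 3 members, lies below. None of these contrasts was tested. Without Hdc-/- array 1 the median difference of the members was -0.0011. The sign of the difference held without any 1 array for 18 of the 39 members. For a gene without overlap the sign cannot turn in this way, so the 11 and the 3 members above are among the 18 by construction. The 11 members without overlap on the higher side were Mcm2, Mcm4, Mcm6, Mcm7 and Cdc45 among the replication genes and Cdk1, Aurka, Plk1, Bub1b, Kif20a and Prc1 among the mitosis genes. For 28 of the 39 the gap between the 2 arrays of at least 1 genotype was larger than the difference between the genotypes, as it was for 16312 of the 22180 genes.

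The replication genes and the mitosis genes were then compared by genotype and by array. The 17 replication genes had a median difference of 0.13 between genotypes and the 22 mitosis genes 0.21, so that replication minus mitosis was -0.072. With each gene set against its own mean, the median of the replication genes was -0.061 and -0.047 on Hdc+/+ arrays 1 and 2 and 0.18 and -0.045 on Hdc-/- arrays 1 and 2. The mitosis genes gave -0.085 and -0.12 on the Hdc+/+ arrays and 0.22 and -0.100 on the Hdc-/- arrays. Both arms therefore had 3 arrays at about the same low level and Hdc-/- array 1 above them. The distance between the arms, replication minus mitosis, was 0.024, 0.078, -0.046 and 0.055 on the 4 arrays in the same order, and the genotypes overlapped. Leaving out Hdc-/- array 1 moved the median difference to 0.026 for replication and -0.040 for mitosis, and turned the sign of replication minus mitosis (0.067). Without Hdc+/+ array 1 replication minus mitosis was -0.18, with a replication median of 0.042.

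The median gap between the Hdc-/- arrays was of similar size in both arms. Array 1 read above array 2 for 12 of 17 replication genes and 19 of 22 mitosis genes, together 31 of 39 (79.5%), against 46.9% of all genes. The median gap, array 1 minus array 2, was 0.24 for replication genes and 0.24 for mitosis genes, beside -0.022 for all genes. The gap was over 0.5 in 6 members, Mcm3 among replication genes and Mki67, Ccna2, Cenpe, Kif11 and Kif23 among mitosis genes. Array 1 was the higher one in all 6. Between the Hdc+/+ arrays, array 1 was above array 2 for 21 of 39 members (53.8%), against 54.7% of all genes. There the median gap was -0.021 for replication genes and 0.066 for mitosis genes, beside 0.031 for all genes, and 2 members, Rrm1 and Cenpf, had a gap over 0.5, in opposite directions.

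**Figure D4:**
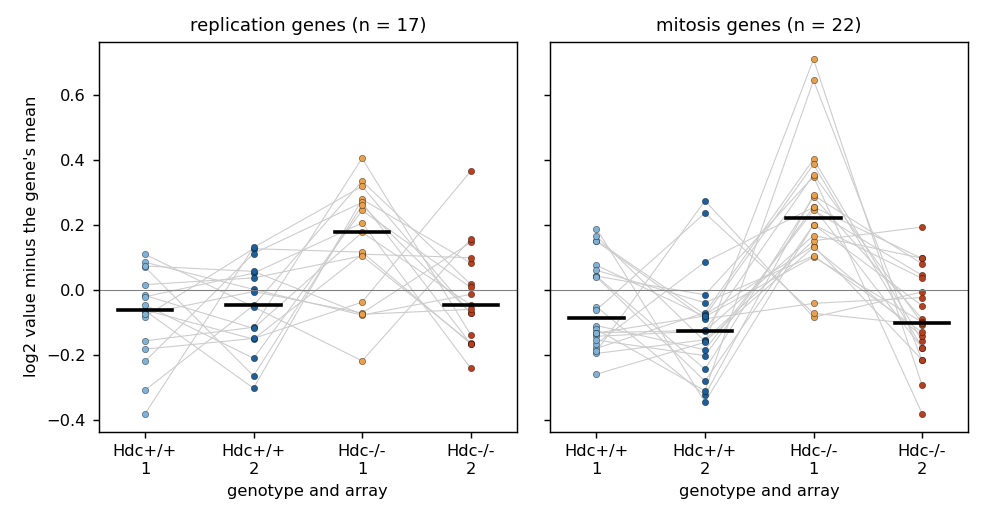
Log2 value minus the gene's own mean over the 4 arrays, for 17 replication genes and 22 mitosis genes; each point is a gene on 1 array, grey lines join a gene and black bars are medians. The median bar of Hdc-/- array 1 stands at 0.18 for replication and 0.22 for mitosis genes, and the other 3 arrays have medians below 0 in both panels.

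Further genes of the same pathways were taken from 3 lists without the members, of which 126 of 132 genes were measured. Hdc-/- array 1 was the highest array for 15 of 40 other replication genes (37.5%), 23 of 51 other mitosis genes (45.1%) and 15 of 35 genes of cell cycle control (42.9%), against 27.2% of all genes. The median gap between Hdc-/- arrays 1 and 2 was 0.060 for other replication genes, 0.25 for other mitosis genes and 0.19 for cell cycle control. Their median differences by genotype were 0.073, 0.075 and 0.065. By limma 0 genes of the 3 lists passed at an adjusted p under 0.05, and at an unadjusted p under 0.05 there were 0 higher and 2 lower among other replication genes, 1 higher and 1 lower among other mitosis genes, and 4 higher and 3 lower among control genes. Together these were 11 of 126 genes (8.73%), against 8.55% of all genes, so the pooled count is at the background. The lists differed: 11.4% of control genes were higher and 8.57% lower, against 3.68% and 4.87% of all genes. The shares were 0% and 5% for other replication genes and 1.96% and 1.96% for other mitosis genes. These differences between lists were not tested.

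The 7 control genes at an unadjusted p under 0.05, which that choice picked for a separation of the genotypes, were 4 higher and 3 lower on the Hdc-/- arrays. Myc, the growth-promoting transcription factor, read 5.56 and 5.72 on the Hdc+/+ arrays and 6.50 and 6.32 on the Hdc-/- arrays (difference 0.77, SE 0.17, limma adjusted p = 0.371). Cdk4, the kinase that D-type cyclins activate early in the cycle, read 6.35 and 6.53 against 7.21 and 7.05 (difference 0.69, SE 0.17, limma adjusted p = 0.4). E2f8, an E2F family repressor, read 4.06 and 4.50 against 4.98 and 4.90. Foxm1, the activator of late cell cycle genes, which was named after its values were seen, read 3.76 and 3.72 against 4.21 and 4.17, a difference of 0.45. On the lower side, Cdkn1a, the cyclin-dependent kinase inhibitor p21, read 10.41 and 10.14 against 9.24 and 9.75 (difference -0.78, SE 0.23, limma adjusted p = 0.465). Ccnd2, cyclin D2, read 6.80 and 7.06 against 6.55 and 5.998, and Rb1, the retinoblastoma protein that restrains E2F, read 7.77 and 7.79 against 7.44 and 7.11. Both Hdc-/- values of these 3 lay below both Hdc+/+ values. The mean over the probe sets of Rb1 differed by -0.36, against -0.51 for the one used. None of the 7 passed over all genes.

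Replication and mitosis held 4 more genes of this kind, picked in the same way, which did not pass either. Gins3, a partner of Gins2 in the GINS complex, read 5.28 and 5.33 against 4.69 and 4.79 (difference -0.56), and Prim2, a primase subunit, 7.28 and 7.41 against 6.77 and 6.87 (difference -0.52). Both replication genes were lower on both Hdc-/- arrays, while Gins2 and Pola1, which work in the same complexes, overlapped. Spc24, a subunit of the kinetochore NDC80 complex, read 5.73 and 5.43 against 5.98 and 6.22 (difference 0.53), and Nek2, a centrosome kinase, 4.74 and 4.70 against 4.33 and 4.12 (difference -0.50).

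**Figure D5:**
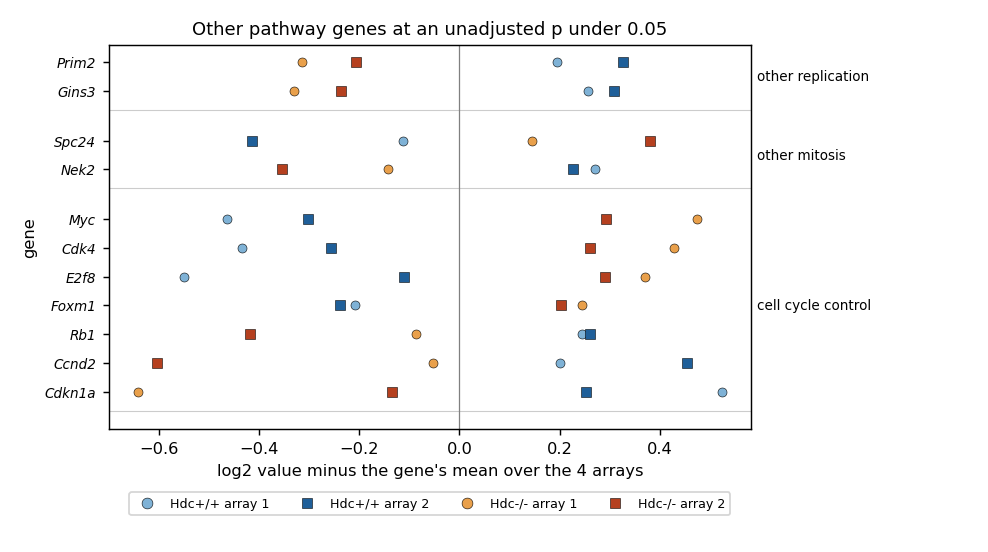
The 11 further pathway genes at an unadjusted p under 0.05, each point being the log2 value on 1 array minus the gene's mean over the 4 arrays. Points of the Hdc-/- arrays lie on 1 side of 0 and those of the Hdc+/+ arrays on the other in every row, and none of the 11 passed at an adjusted p under 0.05.

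Marker lists of other cell types moved between the same arrays, and their part in the results above was not tested. The 4 mucous neck cell markers, none of them below the median gene, had a mean of 9.10 on Hdc-/- array 1, 7.74 on Hdc-/- array 2 and 7.59 and 8.10 on the Hdc+/+ arrays, so they too were highest on Hdc-/- array 1. The same array was the highest for the 6 chief cell markers, with means of 7.35 and 7.06 on the Hdc+/+ arrays and 8.53 and 8.20 on the Hdc-/- arrays, and for the 9 parietal cell markers, with 8.87 and 8.42 against 9.15 and 8.999. The 6 gastric endocrine markers were highest on Hdc-/- array 2, at 7.09 and 6.94 against 7.48 and 8.34. The 5 pit cell markers had means of 11.65 and 11.93 against 11.69 and 11.42. Lymphoid lists were close on the Hdc-/- arrays: the 8 measured T and NK cell markers had means of 4.81 and 4.78, and the 3 measured germinal centre B cell markers 5.06 and 5.01, against 4.27 and 4.51 and against 4.88 and 4.78 on the Hdc+/+ arrays. Markers of organs next to the stomach read higher on both Hdc+/+ arrays for intestine and liver, and on Hdc+/+ array 2 only for pancreas. The 12 intestinal markers had means of 5.72 and 7.51 on Hdc+/+ arrays 1 and 2 against 4.72 and 4.68 on the Hdc-/- arrays, the 10 hepatocyte markers 8.11 and 9.95 against 4.73 and 4.94, and the 7 measured pancreatic acinar markers 4.23 and 8.70 against 4.51 and 4.49. The 8 measured markers of squamous epithelium, whose basal cells divide, had means of 4.47 and 4.89 against 3.52 and 3.94, lower on both Hdc-/- arrays. The 5 adipocyte markers, at 7.13 and 7.69 against 5.57 and 6.13, and the 6 smooth muscle markers, at 8.98 and 9.06 against 8.69 and 8.76, were also lower on both. The 6 macrophage markers had means of 5.79 and 6.22 against 6.33 and 6.31, and the 8 measured B and plasma cell markers 4.001 and 4.46 against 4.33 and 4.23. Below the median gene lay 5 of the 12 intestinal, 0 of the 10 hepatocyte, 2 of the 7 acinar and 5 of the 8 squamous markers. So did 4 of the 8 T and NK cell, 1 of the 3 germinal centre, 6 of the 8 B and plasma cell and 2 of the 6 chief cell markers.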

How the data were processed

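Total RNA of stomach tissue was extracted with Trizol, and biotin-labelled cDNA from 5.5 ug was put on Affymetrix arrays, as the labels' protocols say. The authors deposited log2 probe set values normalized with RMA; the submitters' processing notes list oligo and Affymetrix Power Tools beside RMA, with no version. No source used here gives a genome build or a filter for the array values. RMA makes the arrays' distributions alike and compresses differences of dim probe sets. Of 41345 probe sets, 23521 had 1 symbol, 1814 several and 16010 none, and 23328 of those with 1 symbol matched the RefSeq gene table of GRCm38.p6. For a gene with several, the highest mean over the 4 arrays was used. Genotypes were compared with limma 3.58.1 in R 4.3.3 (lmFit, eBayes, no covariate), with Benjamini-Hochberg adjustment over 22180 genes and a threshold of 0.05. There were 2 residual and 3.62 prior degrees of freedom, and 95% intervals came from the moderated error. On simulated data the fit called 2 of 50 genes changed by 1 on the log2 scale and 40 of 50 changed by 2, with 7 false calls. All members' differences were smaller than 1, so the test says little about changes of their size. With 2 arrays against 2, an exact two-sided permutation test reaches no p below 0.333. Medians over members are descriptions with no test. Same-numbered arrays did not deviate together (correlation of deviations -0.12 over all genes), so the replicate numbers were not taken to pair the arrays.

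The members, role lists, pathway lists and marker lists were chosen with earlier results of these data known. The rule names Mki67, Pcna, Top2a and the largest and smallest difference of each of the 7 roles; values of the remaining members were added so that none is left out. From each pathway list it names up to 3 genes per direction with the smallest p under 0.05, unadjusted. Sequences are from RefSeq. The alternatives tried left out dim genes, averaged probe sets, normalized or centred again, changed the variance prior, used a block of replicate numbers, left out each array and tested every probe set.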

Additional observations from a re-analysis of the deposited data

How the results depend on the processing

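By limma, 0 members passed under every alternative run, and the lowest adjusted p among members ran from 0.467 (without the dimmest 50% of genes) to 0.997 (without Hdc+/+ array 2). The count of all genes called, 1 as reported, was 5 after quantile normalization, 5 with a trended and robust prior, 7 with the replicate block, 0 when every probe set was tested, and between 0 and 161 with 1 array left out, the 161 arising without Hdc+/+ array 1. In those fits the lone array of a genotype is assumed to vary as the pair of the other genotype does. The further pathway genes at an unadjusted p under 0.05 numbered 11 as reported, 6 with the replicate block and between 3 (without Hdc+/+ array 1) and 14 (without either Hdc-/- array). The replicate block changed no member's call. Same-numbered arrays share only a number here; since their deviations correlated at -0.12, a block that crosses the numbers was added after seeing the data, and it called 0 genes and 0 members.

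With 1 array left out, the median difference ran from -0.0011 to 0.30 over all members, from 0.026 to 0.22 for replication genes and from -0.040 to 0.32 for mitosis genes, and replication minus mitosis from -0.18 to 0.067; the cause was not tested. The lowest value of each of the first 3, and the highest of the last, came without Hdc-/- array 1. The sign of 21 members turned in at least 1 of these fits. Among replication genes the differences ran from -0.19 to 0.094 for Cdt1, from -0.032 to 0.19 for Gins2, from -0.0016 to 0.54 for Mcm3, from -0.19 to 0.078 for Pcna, from -0.26 to 0.19 for Pola1, from -0.11 to 0.32 for Ccne1, from -0.0073 to 0.51 for Rrm1 and from -0.25 to 0.13 for Tyms. Among mitosis genes they ran from -0.032 to 0.53 for Mki67, from -0.39 to 0.34 for Ccna2, from -0.25 to 0.098 for Ccnb2, from -0.32 to 0.14 for Aurkb, from -0.096 to 0.10 for Birc5, from -0.14 to 0.29 for Bub1, from -0.18 to 0.057 for Cdc20, from -0.17 to 0.15 for Ube2c, from -0.0011 to 0.86 for Cenpe, from -0.11 to 0.42 for Cenpf, from -0.083 to 0.92 for Kif11, from -0.071 to 0.49 for Kif23 and from -0.14 to 0.094 for Nusap1. Ube2c was 0.0019 when arrays were centred on the gene median. No other member changed sign under the alternatives that keep all 4 arrays. The number of arrays is the limit on precision, and signal over background was not known per probe set.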
